A study of Mus musculus with 32 samples.

Results

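Robo3 and Robo4 are neighbouring genes of the roundabout receptor family, and they were chosen because earlier results of these same data showed them moving in opposite directions after lipopolysaccharide (LPS). They are 2 of the 45706 genes in the deposited tables, and both were among the 15186 genes that passed the filter on low counts. Their levels and their differences between the groups are therefore given as a description, with no test, since the members were selected on these values. Roundabout receptors sit in the cell membrane, bind Slit proteins and steer growing axons and migrating cells through the actin cytoskeleton. Robo3 is known from axons that cross the midline of the nervous system, and in mammals it binds Slits poorly and NELL2 instead. Robo4 is known from blood vessel endothelium and, in marrow, from long-term haematopoietic stem cells, where it acts with Cxcr4 in holding these cells in their niche.

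The RNA came from mouse haematopoietic stem and progenitor cells, sorted from marrow as lineage-negative, cKit-positive and Sca1-positive cells that carried both CD45.1 and CD45.2. Those markers identify wild-type donor cells on a C57BL/6J background, so none of the measured cells carried the leukaemia transgene by design. In the experienced groups, labelled AF9_Experienced, lethally irradiated C57BL/6J hosts carrying CD45.2 had received 800000 of these wild-type marrow cells and 200000 cells from doxycycline-inducible MLL-AF9 mice, homozygous for hMLL-AF9 and for rtTA. In the naive groups the 200000 partner cells were null for hMLL-AF9 and homozygous for rtTA. Doxycycline began 6 to 8 weeks after transplantation, ran for 5 weeks to induce leukaemia and was withdrawn for 4 weeks to model remission. The mice then received PBS or LPS and were killed 24 hours later, which gives 4 groups by history (naive or experienced) and injection, each with 4 replicates. The sources used here do not give the age of the mice, the promoter driving rtTA or whether a replicate was 1 mouse, so every p-value measures only how these samples vary, which may be technical.

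The 16 libraries held 7718857 to 22264672 expected counts, with 14921 to 19787 genes detected and 1.91% to 7.30% of counts from mitochondrial genes. Experienced LPS replicate 4 was the shallowest, had the highest mitochondrial share and correlated least with its own group (mean Pearson r 0.915 across genes, against 0.936 to 0.979 elsewhere). Kit, which encodes a receptor used in the sort, averaged 482 to 735 counts-per-million units (CPM, after TMM scaling of library size) over the groups. Ly6a, which encodes Sca1, averaged 37.7 CPM in naive PBS and 124 CPM in naive LPS, so the RNA of a marker used in the sort differed with treatment. A lower level in a bulk library can come from fewer cells of a type or from less RNA per cell, and these cannot be told apart here. LPS against PBS called 1490 genes higher (9.81%) and 1803 lower (11.9%) in naive mice, and 686 higher (4.52%) and 1254 lower (8.26%) in experienced mice, by the quasi-likelihood test of edgeR with Benjamini-Hochberg adjustment (adjusted p under 0.05). Those totals depended on single libraries: the naive total of 3293 was 2089 without naive PBS replicate 2 and 2135 without naive PBS replicate 4. The experienced total of 1940 was 3157 without experienced LPS replicate 4, and between 1065 and 1230 without experienced PBS replicate 1 or 2 or experienced LPS replicate 1, 2 or 3. Experienced against naive called 0 genes (0%) after PBS, 0 after LPS and 0 for the difference of the LPS responses, where 451, 491 and 695 genes had an unadjusted p under 0.05 and DESeq2 called 2, 2 and 1.

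Both genes lie on mouse chromosome 9 and point at each other. In GENCODE's annotation of GRCm38, Robo4 (ENSMUSG00000032125) runs on the plus strand at chr9:37401897-37415115 and Robo3 (ENSMUSG00000032128) on the minus strand at chr9:37415669-37433246. Their 3′ ends face each other across 553 bases by the gene models, and across 1645 bases by the transcripts that the deposited tables list, because Robo4-205, the model that reaches farthest, is not among them. No listed exon of one gene overlaps the other, and all 32 expected counts of the 2 genes were whole numbers rather than estimated fractions. The sources used here do not say whether counting used the strand. The gene starts thus stand at opposite outer ends of the locus. The sequences just before them are shown because each gene has its own promoter region, at a distance from that of the other. For Robo4 the outer start is, among the listed models, that of the 3947-base nonsense-mediated decay model. Its listed protein-coding models start at chr9:37402032, chr9:37402033 and chr9:37402046, so the printed Robo4 sequence does not end directly before them. For Robo3 the outer start is that of the 4797-base model. Other listed Robo3 models start inside the gene, among them the 4712-base and 5000-base models at chr9:37430134. The Robo3 sequence, base content and motifs below cover the outer start alone, and the inner starts were not examined. They come from RefSeq (GRCm38.p6), end at the last base before the GENCODE gene start and read 5′ to 3′ on each gene's own strand, with a GC box (GGGCGG, either strand) in capitals.
Robo4 upstream, chr9:37401722-37401896, plus strand: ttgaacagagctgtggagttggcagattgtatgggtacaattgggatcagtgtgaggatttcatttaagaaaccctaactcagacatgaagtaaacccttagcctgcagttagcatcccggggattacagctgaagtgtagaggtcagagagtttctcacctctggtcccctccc
Robo3 upstream, chr9:37433247-37433425, minus strand: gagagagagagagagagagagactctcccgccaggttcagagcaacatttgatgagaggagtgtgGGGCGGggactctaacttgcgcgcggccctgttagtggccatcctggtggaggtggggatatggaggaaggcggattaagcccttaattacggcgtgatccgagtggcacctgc
Base content and motifs were taken over a RefSeq window, chr9:37433126-37433425 for Robo3 and chr9:37401722-37402021 for Robo4. It runs from 250 bases before to 50 bases after a RefSeq start that lies inside the GENCODE gene model. Each window thus holds the printed bases and bases after the GENCODE start. There Robo3 was 63.3% G and C with 17 CG dinucleotides, and Robo4 was 50.3% with 2, against medians of 52.7% and 7 over 32851 promoters. Thus 68.6% of promoters held fewer CG dinucleotides than that of Robo3, and 14.1% fewer than that of Robo4. The Robo3 window held 3 GC boxes and the Robo4 window 0, where 35.7% of all promoters held at least 1. Other motifs were searched on both strands. Neither window held the GATA motif AGATAA, found in 11.2% of all promoters of this length. Neither held the Runx motif TGTGGT, found in 16.8%, or the Ets motif CCGGAA, found in 14.9%. The Stat motif TTCNNNGAA (8.30% of promoters) was without a match. So was the AP-1 motif TGANTCA (7.81%). An interferon response element (3.44%) and an NF-kB site (1.63%) were without a match too. A match or its absence describes these letters in this window and nothing about a factor.

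Robo3 was low at rest and high after LPS. In naive PBS its 4 replicates held 15.6, 16.5, 14.4 and 7.49 CPM, and in experienced PBS 12.1, 13.3, 13.9 and 11.5 CPM. In naive LPS they held 64.2, 58.4, 49.5 and 66.0 CPM, and in experienced LPS 70.1, 67.7, 52.0 and 55.0 CPM. Every LPS library stood above every PBS library, the nearest values being 49.5 and 16.5 CPM, and naive PBS replicate 4 was the lowest of all 16. Group means were 13.5 ± 4.08 CPM (SD, n = 4) in naive PBS, 12.7 ± 1.09 in experienced PBS, 59.5 ± 7.41 in naive LPS and 61.2 ± 9.01 in experienced LPS. The ratio of means, LPS over PBS, was 4.42 in naive and 4.81 in experienced mice, and the fitted log2 differences were 2.14 (SE 0.20) and 2.26 (SE 0.21). In order of level the 4 groups ran experienced PBS, naive PBS, naive LPS, experienced LPS, and only the step from PBS to LPS was larger than the spread between replicates. Within a treatment, experienced minus naive was -0.09 (SE 0.20) after PBS and 0.04 (SE 0.19) after LPS on the log2 scale. Among the 15186 genes, the Robo3 difference ranked 270th from the highest in naive and 117th in experienced mice.

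Robo4 was high at rest and low after LPS, and its difference was the larger one on the log2 scale. In naive PBS its replicates held 28.6, 35.4, 25.1 and 39.8 CPM, and in experienced PBS 31.3, 33.0, 17.5 and 19.3 CPM. In naive LPS they held 2.88, 2.71, 2.16 and 3.16 CPM, and in experienced LPS 3.0, 2.71, 2.69 and 3.99 CPM. Every LPS library stood below every PBS library, the nearest values being 3.99 and 17.5 CPM. These LPS levels rest on 21 to 59 counts a library, against 208 to 757 after PBS, so their counting error is wider. Group means were 32.2 ± 6.62 CPM (SD, n = 4) in naive PBS, 25.3 ± 8.01 in experienced PBS, 2.73 ± 0.42 in naive LPS and 3.10 ± 0.61 in experienced LPS. The PBS mean was 11.8 times the LPS mean in naive and 8.17 times in experienced mice, with fitted log2 differences of -3.57 (SE 0.26) and -3.05 (SE 0.25). These ranked 114th and 145th from the lowest of 15186. The difference between the 2 responses was 0.52 (SE 0.34) on the log2 scale, and experienced minus naive was -0.35 (SE 0.22) after PBS and 0.17 (SE 0.25) after LPS. Naive and experienced libraries overlapped within each treatment, with 25.1 to 39.8 against 17.5 to 33.0 CPM after PBS and 2.16 to 3.16 against 2.69 to 3.99 CPM after LPS.

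**Figure D1:**
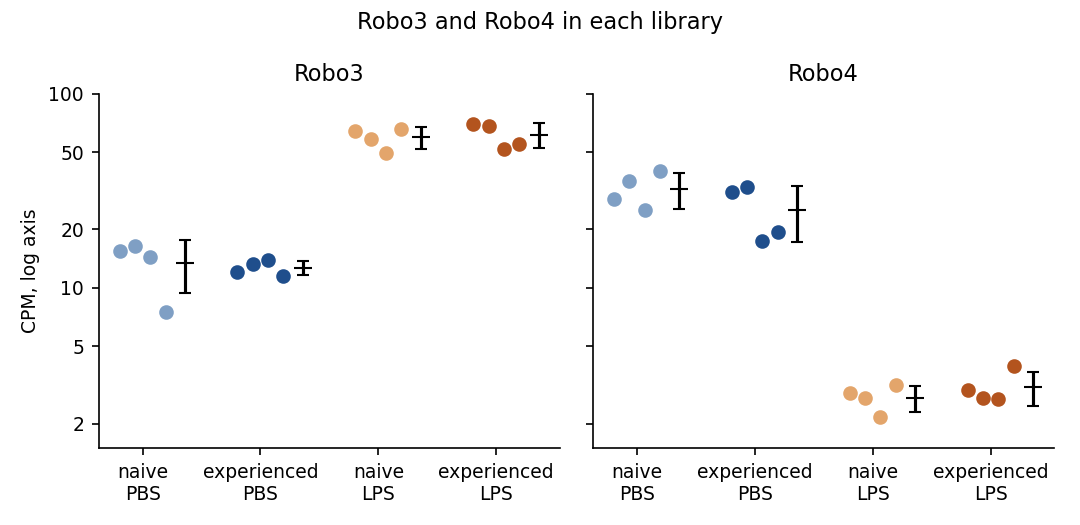
CPM of Robo3 (left) and Robo4 (right) on a shared log axis in each of the 16 libraries, by group, with each group's mean and SD in black. The LPS libraries of Robo3 lie between 49.5 and 70.1 CPM, above all PBS libraries, and those of Robo4 between 2.16 and 3.99 CPM, below all PBS libraries.

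The Robo4 level split the experienced PBS group. Replicates 1 and 2 held 31.3 and 33.0 CPM, inside the naive PBS range, and replicates 3 and 4 held 17.5 and 19.3 CPM, below it. The summed level of 13 erythroid genes was 412 and 468 CPM in replicates 1 and 2 and 1340 and 3413 CPM in replicates 3 and 4. Tfrc, 1 of these 13, encodes the transferrin receptor that brings iron into dividing and erythroid cells, and is named below as opposite to Robo4. Its level was 88.4 and 73.7 CPM in the former and 163 and 222 CPM in the latter. Ly6a was at 40.9 and 44.6 CPM against 14.7 and 21.9 CPM. Other lists split these libraries too, so the split was not particular to erythroid genes. Basophil and mast cell genes summed to 39.6 and 43.6 against 120 and 219 CPM, and mature myeloid genes to 1317 and 1183 against 2395 and 3868. Endothelial genes summed to 553 and 562 against 427 and 423, and stem cell genes to 3899 and 3778 against 2849 and 3271. B and plasma cell genes did not split. Replicates 3 and 4 were also the shallowest PBS libraries. The part of these differences in the Robo4 split was not tested. Robo3 did not split the same way: its 4 values there spanned only 11.5 to 13.9 CPM.

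Levels of the 2 genes can be set against each other per length. In transcripts-per-million units (TPM), Robo4 led Robo3 at rest, 10.5 ± 1.71 against 5.09 ± 2.01 in naive PBS and 8.78 ± 3.05 against 5.51 ± 1.21 in experienced PBS (SD, n = 4). After LPS Robo3 led, with 27.1 ± 13.5 TPM against 0.84 ± 0.15 in naive and 26.9 ± 15.3 against 0.99 ± 0.25 in experienced mice. Ranked by mean TPM, 32.3% of the tested genes lay below Robo3 in naive PBS and 69.3% in naive LPS, and for Robo4 the shares were 45.2% and 13.8%. The exception to the resting order was experienced PBS replicate 4, with 7.27 TPM of Robo3 and 6.31 of Robo4, where the other 7 PBS libraries had more Robo4. With each gene's CPM divided by the length of its longest listed model, 5000 bases for Robo3 and 3947 for Robo4, the Robo3 over Robo4 ratio was 0.15 to 0.63 in all 8 PBS libraries and 10.9 to 19.7 in all 8 LPS libraries. On this scale experienced PBS replicate 4 stood at 0.47, with more Robo4 than Robo3.

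The length that RSEM assigned to Robo3, the average of its transcript models weighted by their estimated abundance, varied widely between libraries. It ranged from 1485 to 4059 bases, a ratio of 2.73, and only 1.84% of 6146 genes with several transcripts and at least 100 counts in every library had a larger one (median ratio 1.34). Robo4 stayed between 3689 and 3878 bases, a ratio of 1.05. Short Robo3 lengths occurred in experienced LPS replicate 4 (1485 bases), experienced PBS replicate 4 (2031), naive LPS replicate 1 (2052) and naive LPS replicate 2 (2213), and the other 12 libraries had 2955 to 4059. Robo3 has long models of 4712, 4797 and 5000 bases, the last a nonsense-mediated decay model, and shorter retained-intron models of 668, 2226 and 3222 bases. In libraries with a short length the same CPM became a larger TPM: experienced LPS replicate 4 held 55.0 CPM and 49.3 TPM, and experienced LPS replicate 3 held 52.0 CPM and 14.9 TPM. After LPS, Robo3 spanned 14.8 to 49.3 TPM but only 49.5 to 70.1 CPM, and over the 16 libraries its length correlated with log2(TPM/CPM) at r = -0.94, a description since TPM is computed from that length.

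RSEM length was not used in choosing the genes and was tested. Robo3 length was 3096 bases on average after LPS and 3354 after PBS, a difference of -258 bases (two-sided exact permutation within naive and experienced mice, p = 0.558, adjusted over 4 tests p = 0.943). This difference was 40.7 bases without experienced LPS replicate 4, so its sign rested on that library, and 158 bases without the 2 shallowest libraries. The Robo4 difference was -48.7 bases (exact permutation p = 0.125, adjusted p = 0.501). Experienced minus naive was 28.6 bases for Robo3 and -5.31 bases for Robo4 (exact permutation p = 0.943 and 0.870, adjusted p = 0.943 for both), and the sign of each changed on leaving out any of 8 single libraries for Robo3 and any of 4 for Robo4 (-116 to 327 bases for Robo3, with the lowest value without naive LPS replicate 1, and -17.9 to 13.6 bases for Robo4, with the highest without that same library). The 4 libraries with short Robo3 lengths were among 5 in which lengths were short elsewhere too: in these, 16.1% to 34.2% of genes with several transcripts were over 10% shorter than their median over the libraries, against 3.55% to 9.21% in the other 11. Their part in the Robo3 values was not tested. The 3689 bases given for Robo4 in 3 libraries match none of its model lengths in the annotation used here, and the models that the authors used are not named.

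**Figure D2:**
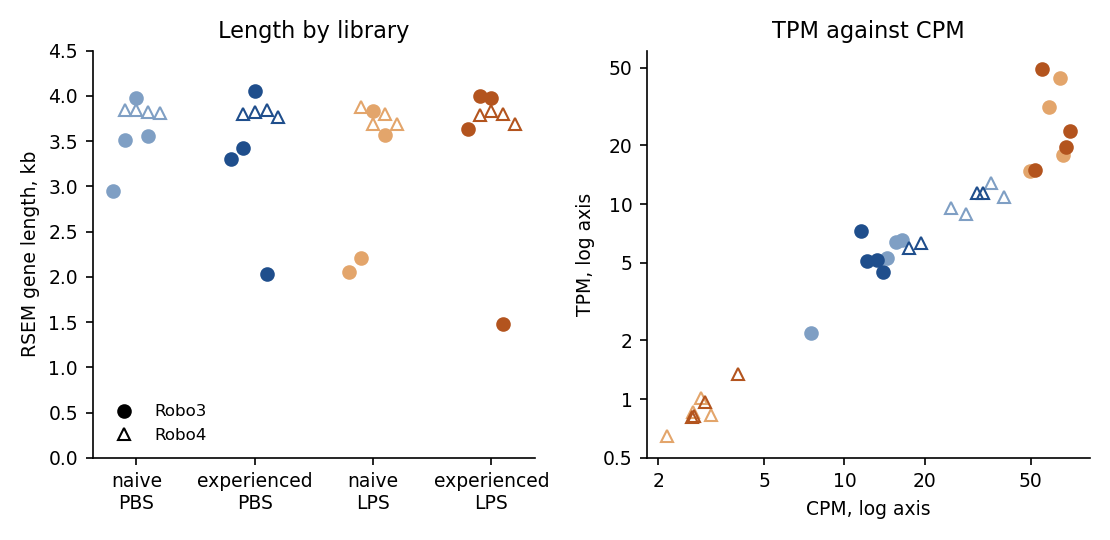
RSEM gene length in kb for Robo3 (filled circles) and Robo4 (open triangles) in each library by group (left), and TPM against CPM for the same values on log axes (right), with groups in the colours of the left panel. Robo3 lengths fall to 1.48 kb in experienced LPS replicate 4, and at 49.5 to 70.1 CPM its TPM spreads from 14.8 to 49.3.

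Whether the 2 genes track each other was asked with the group means removed. Over all 16 libraries their log2 CPM correlated at r = -0.961, which restates the opposite group differences that chose them. For the deviations of each library from its group mean, Pearson r was -0.19 (exact permutation within groups, p = 0.555) and Spearman rho was -0.14 (exact permutation p = 0.594). In the 8 PBS libraries r was -0.34 (exact permutation p = 0.377) and rho -0.29 (p = 0.378), and in the 8 LPS libraries r was 0.27 (p = 0.552) and rho 0.29 (p = 0.533). Adjusted over the 3 relations, every p for r was 0.555 and every p for rho 0.594. Without the 2 libraries farthest from the median of Robo4, experienced PBS replicates 2 and 3, r was -0.20. Without naive PBS replicate 4, the library with the lowest Robo3, r turned to 0.19, so the sign of the relation rests on 1 library. On log2(TPM + 1) r was 0.24 (exact permutation p = 0.232). Within naive LPS the 4 libraries gave r = 0.985 and in the other groups -0.62, -0.08 and -0.27, each from 4 points and given as a description.

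**Figure D3:**
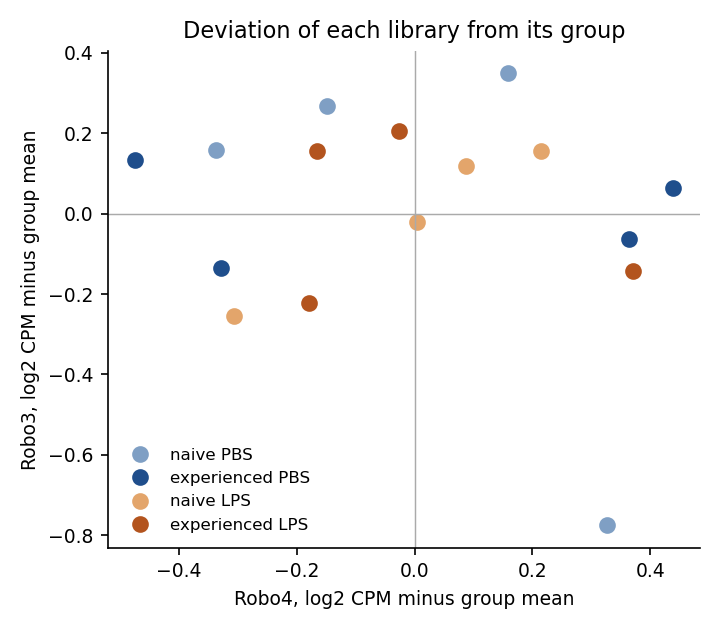
Deviation of each library from its group mean in log2 CPM, Robo4 on the horizontal and Robo3 on the vertical axis, coloured by group. Over the 16 points r is -0.19, and naive PBS replicate 4 lies lowest at -0.78 for Robo3.

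The genes whose pattern was most like each member were ranked by r over the 16 libraries among 10169 genes whose log2 CPM averaged 2 or more. Left out of that number were genes without a symbol, predicted gene models, pseudogenes, lymphocyte receptor segments, Xist, Tsix, Y-linked genes and the 2 members. Since the groups dominate r, the correlation of the deviations from the group means is given beside it, and both are descriptions over libraries that share their groups. The r used for ranking includes these deviations, so the sign and size of the second value come in part from the ranking. For Robo3 the 6 nearest were Csf2rb2 (r 0.965, deviations 0.30), Serpina3f (0.963, 0.21), Csf2rb (0.962, 0.28), Cntnap1 (0.958, 0.13), Col18a1 (0.956, 0.37) and Gadd45g (0.954, 0.28). Csf2rb encodes the common beta chain of the IL-3, IL-5 and GM-CSF receptors, and Csf2rb2 is its near copy, so reads of these 2 may be divided between them. The most opposite to Robo3 were Cnn3 (-0.962, -0.31), Paqr5 (-0.959, -0.30), Stxbp4 (-0.958, -0.30), Mirt1 (-0.956, -0.41), Atp2b4 (-0.953, -0.12) and Hlf (-0.952, -0.33), the last a transcription factor of stem cells. For Robo4 the nearest were Paqr5 (0.987, 0.72), Sla2 (0.983, 0.79), Thsd1 (0.983, 0.78), Sgpl1 (0.981, 0.60), Fbxo32 (0.98, 0.84) and Gprc5b (0.979, 0.64). The most opposite to Robo4 were Cntnap1 (-0.972, -0.59), Homer2 (-0.966, -0.44), Tfrc (-0.961, -0.89), Csf2rb (-0.961, -0.18), Cst7 (-0.960, -0.47) and Nomo1 (-0.960, -0.61). The deviations of the 12 genes named for Robo3 correlated with it at sizes of 0.12 to 0.41, and those of the 12 named for Robo4 at sizes of 0.18 to 0.89. Paqr5, Cntnap1 and Csf2rb stood on both lists, in opposite places.

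**Figure D4:**
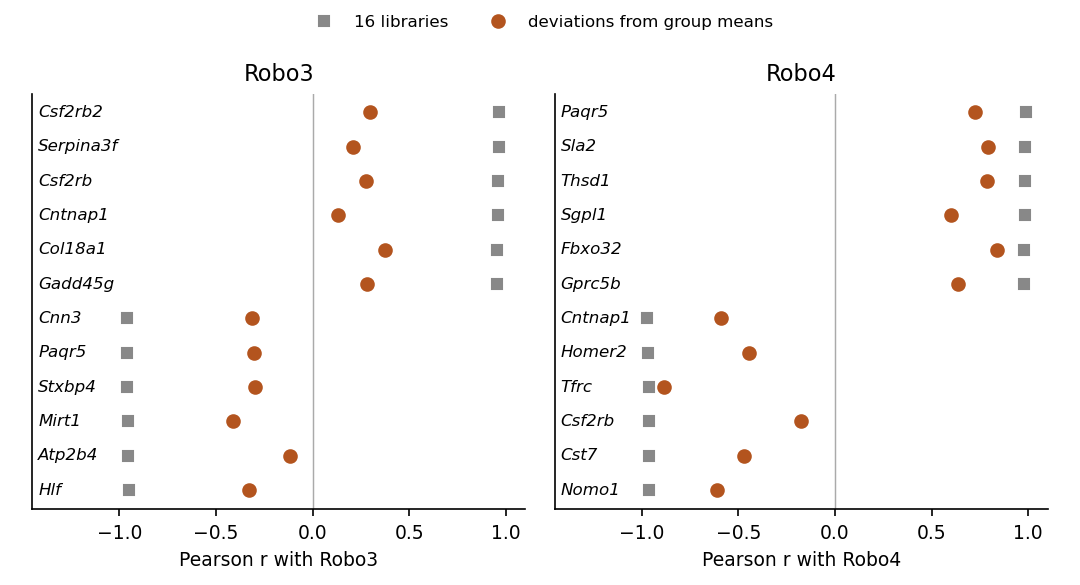
Pearson r of the 6 most like and 6 most opposite genes with Robo3 (left) and Robo4 (right), over the 16 libraries (grey squares) and over deviations from group means (circles). The circles lie nearer to 0 for Robo3, within 0.41, than for most genes of Robo4, where Tfrc reaches -0.89.

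The other genes around the locus were compared in the same fit. GENCODE lists 27 other genes within 500 kb, of which 11 passed the filter on low counts, and 7 of the other 16 were olfactory receptor genes. In naive mice 2 of the 11 were higher after LPS and 1 was lower (by edgeR, against 9.81% and 11.9% of all genes), with a median log2 difference of 0.14, and in experienced mice 1 was higher and none lower (against 4.52% and 8.26%), with a median of -0.22. Nothing particular to the locus is read from these counts. At an unadjusted p under 0.05 there were 7 and 3. The lower one was Esam, a junction adhesion molecule of endothelial cells and stem cells, which lies 94832 bases beyond Robo3 and fell by 1.57 (SE 0.34, adjusted p = 0.0041), from 27.8 to 9.36 CPM. In experienced mice its difference was -0.37 (SE 0.33, adjusted p = 0.514), and the difference between the 2 responses, 1.20 (SE 0.47), did not pass the test (adjusted p = 0.884). Higher were Tbrg1, a growth regulator, by 0.39 in naive mice (SE 0.11, adjusted p = 0.0244), and the pseudogene Gm10177 by 0.69 (SE 0.21, adjusted p = 0.0263) and, in experienced mice, by 0.81 (SE 0.21, adjusted p = 0.0178). The calls of Tbrg1 and Gm10177 were lost on the TPM scale (limma on log2(TPM + 1), adjusted p = 0.224, 0.147 and 0.115). That of Gm10177 was also lost without naive PBS replicate 2 or 3 or naive LPS replicate 3 or 4 in naive mice and without replicate 1 or 2 of either group in experienced mice, and that of Tbrg1 without naive PBS replicate 2 or 3 or naive LPS replicate 1, with upper-quartile factors and without the filter on low counts (adjusted p = 0.0637 to 0.0832 over these 5). The count of 3 neighbours in naive mice was 1 without naive PBS replicate 2 or 3 and 5 without experienced LPS replicate 4. The count of 1 in experienced mice was 0 without replicate 1 or 2 of experienced PBS or of experienced LPS. Reads of a pseudogene may belong to its parent gene. The nearest tested genes were Ccdc15, 53465 bases beyond Robo4 (0.50 in naive and -0.14 in experienced mice, adjusted p = 0.0705 and 0.694), and Msantd2, 56073 bases beyond Robo3 (0.14 and -0.22, adjusted p = 0.626 and 0.476). Also among the 3 nearest tested genes of each side were Slc37a2 on the Robo4 side (-1.97 and -0.42, adjusted p = 0.0628 and 0.747) and Vsig2 on the Robo3 side (-1.59 and -0.55, adjusted p = 0.128 and 0.665), both at about 1 CPM or less. Experienced against naive called none of the 11 after PBS, after LPS or for the difference of responses by edgeR or DESeq2, where 0, 0 and 2 had an unadjusted p under 0.05.

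**Figure D5:**
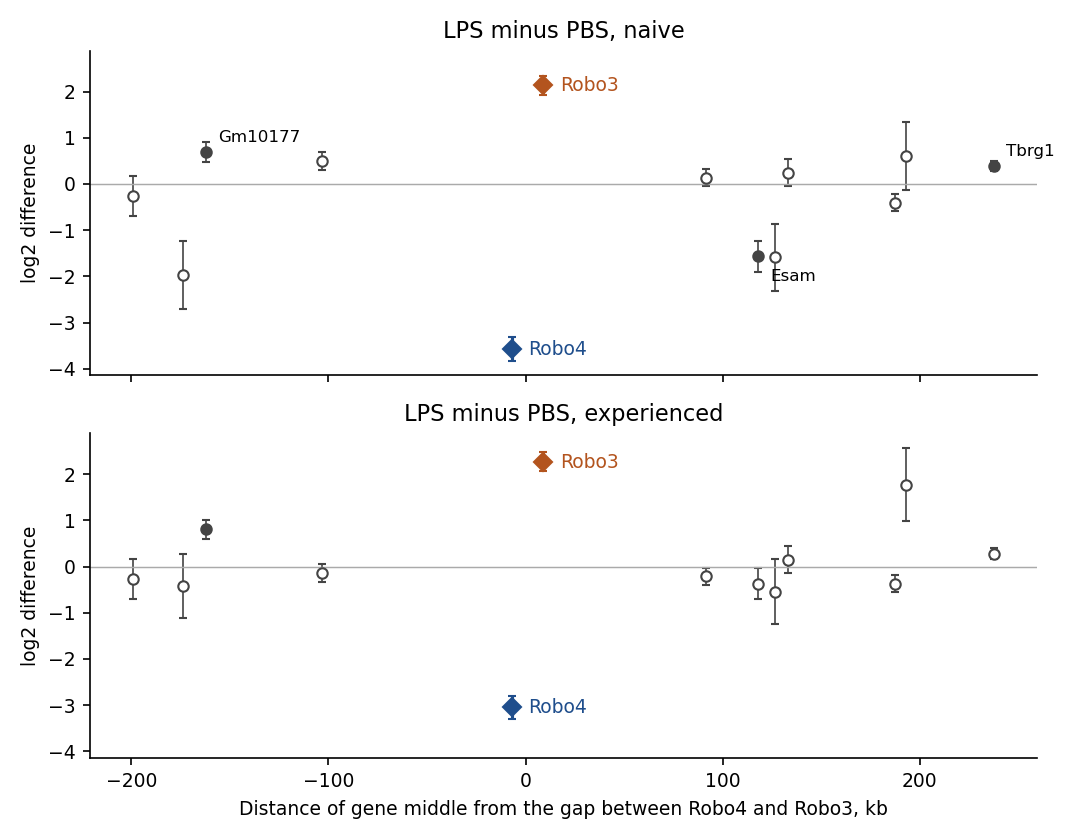
Log2 difference after LPS with its SE for Robo3, Robo4 and the 11 tested genes within 500 kb, in naive (top) and experienced mice (bottom), by distance in kb of the gene's middle from the gap between Robo4 and Robo3. Filled circles passed the test. Robo3 at 2.14 and 2.26 and Robo4 at -3.57 and -3.05 are the highest and the lowest points.

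The other receptors were close to the limit of detection. Robo1, the broadly expressed Slit receptor, had 230 counts over all libraries and averaged 1.58 CPM in naive PBS, 0.98 in experienced PBS, 0.20 in naive LPS and 0.85 in experienced LPS. Its log2 difference after LPS was -2.98 in naive mice (SE 1.07, edgeR adjusted p = 0.0554) and -0.35 in experienced mice (SE 0.96, adjusted p = 0.850). The naive difference was a call with DESeq2, with a replicate block, without experienced LPS replicate 3 or 4 and without the 2 shallowest libraries. Per length, its TPM never exceeded 0.42, where Robo3 and Robo4 reached 49.3 and 12.8. Robo2, a receptor of axon guidance, had 3 counts in 2 libraries. RNA of the ligands was as sparse in these cells. Slit2, a secreted repellent for Slit receptors, had 186 counts and averaged 0.98 and 0.90 CPM after PBS in naive and experienced mice and 0.22 and 0.46 CPM after LPS. Its log2 difference was -1.93 in naive mice (SE 0.80, edgeR adjusted p = 0.0927) and -0.91 in experienced mice (SE 0.76, adjusted p = 0.479). The naive difference of Slit2 was a call without naive LPS replicate 1 and with limma on log2(TPM + 0.1). Slit1 had 52 counts and Slit3 had 23, both too few to test. Nell1 and Nell2 had 0 counts in all libraries, which allows up to 0.135 CPM before TMM scaling in the deepest and 0.389 in the shallowest library (3 counts of its total, for counting error only). Unc5b, a netrin receptor that binds Robo4, had 70 counts, and Flrt3, a membrane partner of Robo1, had 5.

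The machinery that Robo receptors act through was expressed. Of 30 adaptors and targets, 29 were tested, and in naive mice 3 rose (against 9.81% of all genes) and 5 fell (against 11.9%) after LPS, with a median log2 difference of -0.11 against 0.02 over all genes. In experienced mice 0 rose and 2 fell (against 4.52% and 8.26%; median 0.02, against -0.02), where 7 had an unadjusted p under 0.05 and DESeq2 called 6. These counts were near the shares over all genes, and nothing particular to the list is read from them. The genes named below are given singly and not as a result about the list. The 3 that rose, Nck2, Sos1 and Usp33, were 0 without naive LPS replicate 1 or naive PBS replicate 2, 3 or 4 and on the TPM scale, and 1 without naive PBS replicate 1 or experienced LPS replicate 2. The 5 that fell were 3 without naive PBS replicate 2, 3 or 4 or naive LPS replicate 2. The 2 in experienced mice were 1 without experienced PBS replicate 2 or experienced LPS replicate 2 or 3, and 5 without naive LPS replicate 2. Evl, which speeds actin filament growth, fell by 1.95 (SE 0.26, edgeR adjusted p = 0.000137) in naive and by 1.60 (SE 0.26, adjusted p = 0.000874) in experienced mice, from 11.8 and 11.5 to 3.07 and 3.78 CPM. Srgap3, a GTPase-activating protein that binds Robo tails, fell by 1.04 (SE 0.22, adjusted p = 0.00394) and 0.86 (SE 0.22, adjusted p = 0.0179). Its second call was lost without experienced LPS replicate 2 or 3 or experienced PBS replicate 2 (adjusted p = 0.0558, 0.0715 and 0.0518). Pak1, a kinase downstream of Rac, fell by 0.57 in naive mice (SE 0.14, adjusted p = 0.0102). Usp33, a deubiquitinase that binds Robo1, rose by 0.64 in naive mice (SE 0.19, adjusted p = 0.0234), and that call was lost on the TPM scale (adjusted p = 0.249) and without naive LPS replicate 1 or naive PBS replicate 2, 3 or 4 (adjusted p = 0.0730, 0.0548, 0.0550 and 0.0504). The GTPases Cdc42, Rac1 and Rhoa had log2 differences of -0.12, 0.10 and 0.27 in naive mice and did not pass the test (adjusted p = 0.527, 0.742 and 0.283).

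Genes of niche retention and stem cell identity, the setting in which Robo4 is known in marrow, were counted beside it. Of 20 niche genes, 16 were tested, with 1 higher and 5 lower in naive mice (against 9.81% and 11.9% of all genes; median -0.42, against 0.02) and 1 higher and 3 lower in experienced mice (against 4.52% and 8.26%; median -0.26, against -0.02). Without experienced LPS replicate 4 the naive counts were 3 and 8. The 1 higher was 2 without experienced PBS replicate 1 or 4 or naive LPS replicate 4 in naive mice, and without experienced PBS replicate 4, naive LPS replicate 2 or 4 or experienced LPS replicate 4 in experienced mice. Cxcr4, the chemokine receptor that works beside Robo4 in holding stem cells in marrow, did not pass the test: it averaged 151 CPM in naive PBS and 122 in naive LPS (log2 difference -0.30, adjusted p = 0.118), and 147 and 127 CPM in experienced mice (-0.21, adjusted p = 0.336). Alcam, an adhesion molecule, fell by 2.58 (SE 0.23, adjusted p = 6.52e-06) in naive and by 2.31 (SE 0.23, adjusted p = 2.05e-05) in experienced mice. Adgrg1, an adhesion receptor of stem cells, fell by 1.07 and 0.68 (adjusted p = 0.000253 and 0.0102), and Angpt1, a Tie2 ligand, by 0.98 and 0.87 (adjusted p = 0.00369 and 0.0110). Itga6, a laminin-binding integrin, rose by 0.62 in experienced mice (adjusted p = 0.00851), a call lost on the TPM scale (adjusted p = 0.132). All 24 stem cell genes were tested, and 14 fell and 2 rose in naive mice (against 11.9% and 9.81% of all genes; median -0.71, against 0.02), and 10 fell and 3 rose in experienced mice (against 8.26% and 4.52%; median -0.82, against -0.02). Mecom fell by 2.03 and 1.84, Hlf by 2.40 and 2.10, Tie1 by 1.67 and 1.20 and Fgd5, a marker of long-term stem cells, by 2.77 and 2.01. Prdm16, a stem cell transcription factor, fell by 1.52 and 1.67, and Ifitm1, an interferon-induced membrane protein, rose by 2.07 and 2.26 (adjusted p from 1.11e-05 to 0.00462 over these 6 genes). Neither list holds Robo3 or Robo4.

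Markers of the other cell types in which these receptors are known were summed in each library. Robo4 is known from endothelium as well as from long-term stem cells. Of 18 endothelial genes some were well expressed, with Eng, Tie1 and Pecam1 at 173, 116 and 110 CPM in naive PBS. Others were near 0: Cdh5, the junction cadherin, averaged 0.13 to 0.69 CPM over the groups, Cldn5 had 11 counts, Ptprb 21 and Lyve1 0 in all libraries. Of the 18, 12 were tested, and 5 fell in naive mice (against 11.9% of all genes; median -0.72) and 4 in experienced mice (against 8.26%; median -0.49), with none higher by edgeR in all libraries and 1 higher in naive mice without naive PBS replicate 1, naive LPS replicate 2 or experienced LPS replicate 4. Among them were Tie1, also on the stem cell list, Pecam1 (-0.63 in both, adjusted p = 0.00290 and 0.00432, the second lost on the TPM scale at 0.0842) and, in naive mice, Egfl7 (-1.36, adjusted p = 0.00145). The summed level of the 18 was 494 to 588 CPM in naive PBS, 423 to 562 in experienced PBS, 271 to 417 in naive LPS and 324 to 385 in experienced LPS. This list also holds genes known in stem cells, such as Tie1 and Esam, so its sum cannot be read as endothelial cells alone. Robo3 is a neural gene, and the summed level of 10 neural genes was 1.06 to 6.88 CPM in PBS and 1.24 to 4.39 CPM in LPS libraries, with Stmn2 at 0 counts. Of the 10, 3 were tested, and 1, the neuronal microtubule protein gene Map2, was lower in experienced mice (against 8.26% of all genes). That call was lost without experienced PBS replicate 2, 3 or 4 or experienced LPS replicate 1 or 2.

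Genes of some other blood lineages differed with treatment as well. The summed level of 10 basophil and mast cell genes was 44.4 to 78.3 CPM in naive PBS, 39.6 to 219 in experienced PBS, 435 to 800 in naive LPS and 301 to 552 in experienced LPS. All 9 that were tested rose in naive mice (against 9.81% of all genes) and 6 rose in experienced mice (against 4.52%), the latter 3 without experienced PBS replicate 1 or 2 or experienced LPS replicate 1 or 3. Among them were Fcer1a, an IgE receptor chain, by 3.0 and 2.88 (adjusted p = 1.63e-05 and 5.43e-05). Ms4a2, its beta chain, rose by 4.40 and 3.07 (adjusted p = 0.000131 and 0.00205). The naive count of 9 fell to 7 without naive LPS replicate 1, and to 8 on omitting any single other naive library. It was also 8 without experienced LPS replicate 1, 2 or 3, and with upper-quartile factors or no filter on low counts. The summed level of 13 erythroid genes was 501 to 655 CPM in naive PBS, 412 to 3413 in experienced PBS, 1318 to 3135 in naive LPS and 1131 to 2562 in experienced LPS. Of 12 tested, 8 rose in naive mice (against 9.81% of all genes) and 1, Tfrc, in experienced mice (against 4.52%). Nothing particular to the list is read from the latter count. The 8 were 5 without naive PBS replicate 1 and 4 without naive PBS replicate 4, and the 1 was 2 without experienced PBS replicate 4. Globin genes stayed at or below 2.39 CPM. Of 11 B and plasma cell genes 9 were tested, and 5 fell in naive and 2 in experienced mice (against 11.9% and 8.26%), with a summed level of 27.8 to 86.4 CPM after PBS and 13.3 to 21.6 after LPS. The 5 were 2 when naive LPS replicate 3 or naive PBS replicate 1 was left out, and 3 without naive PBS replicate 2 or 3, experienced PBS replicate 2, naive LPS replicate 1 or 4 or experienced LPS replicate 1 or 3, and the 2 were 4 without experienced PBS replicate 3. Of 14 mature myeloid genes 12 were tested, with 1 lower in naive (Ltf, against 11.9% of all genes) and 1 higher in experienced mice (Cd14, against 4.52%). The 14 summed to 829 to 3868 CPM after PBS and 1228 to 3725 after LPS. The call of Ltf was lost in 6 single-library omissions and that of Cd14 in 5 and on the TPM scale (adjusted p = 0.0789). T and natural killer cell genes (5 of 10 tested, Cd4 lower in both, a call lost in 5 single-library omissions each) summed to 80.2 to 117 CPM after PBS and 58.8 to 119 after LPS. The 12 stromal genes (4 tested, Runx2 lower in both) summed to 205 to 329 and 129 to 172 CPM. Of all genes, 11.9% were lower in naive and 8.26% in experienced mice. Nothing particular to the myeloid, T and natural killer or stromal lists is read from these single calls. Runx2 and Pdgfrb made up most of the stromal sum, and Col3a1, Pdgfra, Lum and Acta2 had 2 to 4 counts each. The part of any of these lineages in the Robo3 and Robo4 differences was not tested.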

How the data were processed

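RNA was measured in 16 tables, 1 per biological replicate, for the 32 samples in the labels, which list technical replicates. Merging of these is not stated. The submitters' processing notes name Trim Galore 0.6.7 (trimming), STAR 2.7.10a (alignment), RSEM 1.3.1 (quantification) and the build GRCm38, without an annotation release or strand setting. The labels' protocols give column-extracted RNA but a single-cell droplet kit for the libraries, and this was not resolved. The deposited tables give expected counts, RSEM's estimates, and TPM, scaled by the authors for transcript length, per the file headers. They also give length and effective length in bases per gene, the abundance-weighted transcript lengths of RSEM, per the file headers.

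Expected counts were rounded and filtered by edgeR's expression filter, which left 15186 genes holding 99.9% of counts. A quasi-likelihood model with a mean for each group was fitted in edgeR 4.0.16 (R 4.3.3) to the 16 libraries after TMM scaling, with Benjamini-Hochberg adjustment over all genes tested. CPM used the same scaling, and log2 CPM a prior count of 2. The fit was tested on simulated data: for LPS against PBS in naive mice, on 14948 genes, 40% of 4-against-4 changes of 2-fold and 74% of 4-fold were recovered. Only 50 genes were changed at each fold, far fewer than the 3293 called there in the data, so recovery in that comparison may differ. For experienced against naive, 34% after PBS and 42% after LPS of 2-fold changes were recovered, and 70% and 74% of 4-fold. For the difference of the 2 responses, on 14970 genes, 12% of 2-fold and 62% of 4-fold were recovered. Permutation tests were exact. The test of the relation between the 2 genes shuffled values within each group. The tests of length shuffled treatment within each history, or history within each treatment. Gene symbols matched 45143 of 45706 identifiers in GENCODE's GRCm38 annotation. The members and the 13 lists (Robo receptors, ligands, adaptors and targets, niche retention, stem cell identity, and endothelial, stromal, B and plasma, T and natural killer, erythroid, mature myeloid, basophil and mast, and neural genes) were chosen with earlier results of these data known. Named were both members in every library, every receptor and ligand, the 3 nearest tested genes on each side and every called neighbour, up to 4 called genes per list with the lowest adjusted p, and the 6 genes with the highest and lowest r. Other named genes (Cxcr4, Cdc42, Rac1, Rhoa and markers near 0) were picked after their values were seen. Alternatives were DESeq2 1.42.0, limma 3.58.1 on log2(TPM + 1) and log2(TPM + 0.1), upper-quartile factors, no filter on low counts, no TMM scaling, another prior count, other distances for neighbours, a replicate block, each library left out in turn and, chosen after seeing the data, the 2 shallowest libraries left out.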

Additional observations from a re-analysis of the deposited data

Results flagged for a closer look

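The RSEM length of Robo3 in experienced LPS replicate 4 was 1485 bases, far below the other 3 replicates of its group at 3635, 3973 and 4005 bases. It stood apart by the gap to its nearest neighbour relative to the whole range of the group. Chance marks about 1 in 20 such groups, and 24 groups of 4 (length, CPM and TPM of both genes in the 4 groups) were examined, with this as the only one marked. The same library had 29 Robo4 counts, the shortest Robo3 length of all 16 and the highest mitochondrial share, 7.30%.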

How the results depend on the processing

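The log2 differences of Robo3 and Robo4 after LPS kept their direction under all 23 alternative fits. On log2(TPM + 1) with limma the Robo4 differences were -2.64 in naive and -2.25 in experienced mice, smaller by construction of the pseudocount at low TPM, and the difference between the Robo3 responses was -0.18, and -0.23 on log2(TPM + 0.1). Genes called after LPS were 1880 and 1772 in naive and 1132 and 1107 in experienced mice with limma at pseudocounts of 1 and 0.1, with 1 and 1 and 0 and 0 neighbours called. For experienced against naive, limma at a pseudocount of 1 called 1 gene after PBS, and DESeq2 called 2 after PBS, 2 after LPS and 1 for the difference of responses. The cause of these changes was not tested. With the 2 shallowest libraries left out, a choice made after seeing the data, 4131 genes were called in experienced mice and the Robo3 length difference after LPS was 158 bases. On log2(TPM + 1) the correlation of Robo3 with Robo4 within groups was 0.24. Leaving out each library in turn gave 2089 to 4398 and 1065 to 3157 genes called after LPS in naive and experienced mice, and 1 to 5 and 0 to 1 neighbours. It gave correlations of -0.31 to 0.19, Robo3 length differences of -453 to 40.7 bases after LPS and -116 to 327 bases for experienced minus naive, and Robo4 length differences of -67.6 to -34.1 and -17.9 to 13.6 bases. With a replicate block 2920 and 1592 genes were called after LPS, and the Robo3 and Robo4 differences in naive mice were 2.17 and -3.55. Same-numbered libraries did not deviate together (24 correlations from -0.22 to 0.32, 4 above 0.1, and 2 of 16 libraries closest to their own number), so the numbers were not taken to pair samples. Low counts of Robo4 after LPS (21 to 59) and of Robo1 and the Slits limit what could be seen of them.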
